A study of Mus musculus with 2 samples.

Results

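T and NK cells numbered 81 of the 9933 bone marrow cells (BMCs) in the sc-RNA-Seq data, with 20 of 6271 cells in the WT library and 61 of 3662 cells in the Cko library. They were chosen by their UMI counts, as cells that held at least 1 UMI of at least 2 of the 6 genes *Cd3d*, *Cd3e*, *Cd3g*, *Trbc2*, *Ccl5* and *Gzma*. A UMI (unique molecular identifier) marks 1 captured RNA molecule. The chosen cells also held less than 0.2% of their UMIs from the progenitor genes *Elane* and *Prtn3*, less than 5% from the 6 neutrophil granule genes *Camp*, *Ngp*, *Ltf*, *Lcn2*, *S100a8* and *S100a9*, and less than 1% from hemoglobin genes. Since the 6 genes chose the cells, their own levels are given below as a description only.

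BMCs were taken from the fore- and hindlimbs of C57BL6/J mice at postnatal day 21, freed of red blood cells and captured with the 10x Genomics 3′ platform. In the Cko mouse, floxed *Mbtps1*, the gene for site-1 protease (S1P), was deleted by Osx-Cre, a Cre recombinase driven by the osterix promoter of bone-forming cells and their precursors. The paper proposes that Osx-Cre is also active in hematopoietic cells, and it reports a deletion of *Mbtps1* in sorted neutrophils of Cko mice. The WT mouse carried no deletion, and the figure legends of the study give WT mice as S1P f/f, that is, with the floxed alleles and no Cre. Each genotype was represented by 1 library from 1 mouse, so differences between genotypes, between mice and between preparations cannot be told apart and no test between genotypes was possible. Whether *Mbtps1* was also deleted in the T and NK cells themselves was not measured here.

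T cells carry the T cell receptor, whose chains signal through the CD3 proteins, and the coreceptors CD4 or CD8 mark their main branches. NK cells lack CD3 and recognise targets through receptors such as NKp46 (*Ncr1*) and the lectin-like Klr family. Both kinds of cell can kill through granzymes and signal through chemokines such as CCL5, XCL1 and CCL4, and the bone marrow is where NK cells arise and where circulating T cells settle.

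The WT members held 3202 to 15265 UMIs (median 6016.5) and the Cko members 3188 to 16155 UMIs (median 4416), or 127813 and 330467 UMIs in all. Every gene listed in a library reached at least 4 UMIs in 1 of its cells, so that a gene missing from a list is called not listed and not 0. No barcode of these cells occurred in both libraries and no member was called a doublet, although 3 WT and 6 Cko members held at least 2 UMIs of the B cell genes *Cd79a* and *Cd79b*. The summed level of the neutrophil list was 1369 CPM in WT members and 2327 CPM in Cko members (ranges over cells 483 to 2371 and 792 to 4492 CPM), against 53462 and 141969 CPM in all other cells. CPM here means UMIs per 1000000 UMIs of the cells named. The erythroid list stood at 3270 CPM in WT and 1189 CPM in Cko members, against 172760 and 65438 CPM in other cells. *Mmp8*, *Ly6g* and *Stfa1* of the neutrophil list and *Alas2* and *Klf1* of the erythroid list were at 0 in WT members, and *Slc4a1* and *Klf1* were at 0 in Cko members. *Xist*, the X inactivation transcript of female cells, had 463 UMIs in 57 of 61 Cko members and was not listed in WT, whereas the Y-linked *Ddx3y* (5 UMIs) and *Eif2s3y* (9 UMIs) were found in WT members and were not listed in Cko. Sex and genotype therefore cannot be told apart in any difference below.

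Promoter sequences are shown for the 3 CD3 genes that chose the cells and for *Xcl1* and *Gzmb*, 2 of the 3 genes with the lowest ratios of Cko over WT below. *Cd3g* (chr9:44969572-44980431, minus strand), *Cd3d* (chr9:44981786-44987339, plus strand) and *Cd3e* (chr9:44998740-45009627, minus strand) lie side by side in GRCm38, and the starts of *Cd3g* and *Cd3d* are 1355 bases apart on opposite strands. The sequences are the 250 bases before the RefSeq gene start in GRCm38.p6, read 5′ to 3′ on the strand of the gene. Capitals mark matches on either strand to 4 short motifs of lymphocyte factors, namely TGTGGT for RUNX, CAGGAA for ETS, AGATAA for GATA and CTTTGAT for TCF, and a match on the other strand is printed as its reverse complement. No motif overlapped another in these windows.
Cd3d, chr9:44981536-44981785: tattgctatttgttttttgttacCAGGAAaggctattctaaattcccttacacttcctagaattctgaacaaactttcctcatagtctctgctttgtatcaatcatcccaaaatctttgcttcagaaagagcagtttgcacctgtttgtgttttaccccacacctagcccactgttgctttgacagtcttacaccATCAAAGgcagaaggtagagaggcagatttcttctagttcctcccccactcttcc
Cd3g, chr9:44980432-44980681: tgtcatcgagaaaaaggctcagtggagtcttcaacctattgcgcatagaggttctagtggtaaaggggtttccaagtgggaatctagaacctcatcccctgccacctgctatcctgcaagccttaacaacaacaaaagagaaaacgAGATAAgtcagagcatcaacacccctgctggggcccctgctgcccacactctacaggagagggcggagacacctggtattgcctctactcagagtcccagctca
Cd3e, chr9:45009612-45009861: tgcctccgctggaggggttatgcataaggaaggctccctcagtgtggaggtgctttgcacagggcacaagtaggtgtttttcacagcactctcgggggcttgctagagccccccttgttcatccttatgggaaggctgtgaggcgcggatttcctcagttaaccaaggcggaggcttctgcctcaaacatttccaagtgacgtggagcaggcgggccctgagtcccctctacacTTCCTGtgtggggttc
Xcl1, chr1:164935523-164935772: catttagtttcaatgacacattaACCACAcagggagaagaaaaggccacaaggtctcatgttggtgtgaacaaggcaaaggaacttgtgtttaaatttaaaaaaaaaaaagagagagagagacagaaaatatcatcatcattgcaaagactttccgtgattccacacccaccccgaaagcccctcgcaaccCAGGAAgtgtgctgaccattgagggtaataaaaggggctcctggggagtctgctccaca
Gzmb, chr14:56262335-56262584: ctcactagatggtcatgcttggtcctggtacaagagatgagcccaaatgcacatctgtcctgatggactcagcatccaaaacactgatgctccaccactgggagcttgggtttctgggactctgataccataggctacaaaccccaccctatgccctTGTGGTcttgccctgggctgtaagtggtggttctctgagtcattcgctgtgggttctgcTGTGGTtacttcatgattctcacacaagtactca

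The *Cd3d* promoter held an ETS match 227 bases and a TCF match 55 bases before the gene start, the *Cd3g* promoter a GATA match at 104 bases, and the *Cd3e* promoter an ETS match at 16 bases. These distances are from the RefSeq starts, which are also the GENCODE starts of *Cd3d* and *Cd3g* but lie 16 bases inside the GENCODE gene for *Cd3e*, 5 bases inside it for *Xcl1* and 74 bases before it for *Gzmb*. The ETS match of *Cd3e* thus falls at the GENCODE start. The *Xcl1* promoter held a RUNX match at 227 bases and an ETS match at 59 bases, and the *Gzmb* promoter held 2 RUNX matches, at 93 and 34 bases. Such matches are common: among 32851 mouse promoters of this length, 14.0% held the RUNX motif, 25.7% the ETS motif, 9.99% the GATA motif and 3.21% the TCF motif. The matches are a description of the letters and no evidence of binding.

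The share of T and NK cells was higher in the Cko library. They made up 0.319% of WT cells (exact binomial 95% interval 0.195 to 0.492%) and 1.67% of Cko cells (1.28 to 2.13%), a ratio of 5.22 (95% interval 3.11 to 9.14). The ratio depended on the denominator, as the WT library held more cells rich in hemoglobin. Among cells with less than 1% hemoglobin (3126 in WT, 3177 in Cko) the shares were 0.640% and 1.92%, a ratio of 3.0 (1.79 to 5.25). All intervals in this text cover counting error only and not the variation between mice.

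At the threshold, 4 WT and 13 Cko members held exactly 2 of the 6 genes, while 132 WT and 381 Cko cells held exactly 1 and were left out. The other limits removed 4 of 24 WT and 11 of 72 Cko candidates, 1 of the Cko cells by both the granule and the *Elane* and *Prtn3* limits. The cells removed for neutrophil granule genes held 56.0% of these genes in WT (1 cell) and 8.95 to 57.6% in Cko (10 cells), against at most 0.237 and 0.368% among members. The 3 WT cells removed for hemoglobin held 15.2 to 54.6%, against at most 0.583 and 0.544% among members, and the 2 Cko cells removed for *Elane* and *Prtn3* held 0.591 and 0.676%, against at most 0.0299%.

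The label was checked on 26 T and NK markers that the rule did not use. In WT members 20 of them were listed, all 20 were higher than in the other cells of the library and 19 were at least 10-fold higher, with a median of 406-fold. In Cko members 22 were listed, all 22 were higher and 20 were at least 10-fold higher, with a median of 197-fold. Over all genes with at least 20 UMIs in members, the median was 1.36-fold in WT and 1.23-fold in Cko, and 5.64 and 4.12% of genes reached 10-fold. The lowest marker was *Il7r*, the receptor for interleukin 7, at 3.47-fold in WT and 4.92-fold in Cko. *Trac* and *Cd4*, which would mark T cells and their CD4 branch, were not listed in either library, so CD4 T cells could not be looked for by their coreceptor.

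Among genes outside the rule with at least 50 UMIs in members, the 15 that stood highest over the other cells of both libraries, ranked by the lower of their folds, were *Ncr1*, *Gzmb*, *Xcl1*, *Klra7*, *Cd8b1*, *Klre1*, *Sh2d1a*, *Ctsw*, *Trbc1*, *Il2rb*, *Skap1*, *Thy1*, *Klrd1*, *Ms4a4b* and *Gimap4*. Their lower folds ran from 90.9 for *Gimap4*, a GTPase of lymphocyte survival, to 696 for *Ncr1*, the NK receptor NKp46. *Klra7*, *Klre1* and *Klrd1* code for further NK receptors, *Il2rb* for a shared chain of the interleukin 2 and 15 receptors, *Ctsw* for a cathepsin of cytotoxic cells, and *Sh2d1a* and *Skap1* for adaptors of lymphocyte signalling. Members of the Klra family and the paired genes *Trbc1* and *Trbc2* are near-identical copies, so their UMIs may be split between copies and their single levels are uncertain.

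The 6 genes of the rule differed widely in level. *Ccl5*, a chemokine of activated T and NK cells, stood at 2120 CPM in WT and 4318 CPM in Cko members, and *Gzma*, a granzyme, at 1846 and 1289 CPM. The CD3 chains were lower, with *Cd3d* at 477 and 781 CPM, *Cd3g* at 368 and 596 CPM and *Cd3e* at 211 and 245 CPM, and the T cell receptor constant gene *Trbc2* stood at 454 and 817 CPM. *Gzma* was found in 10 of 20 WT and 18 of 61 Cko members, and *Ccl5* in 15 and 43. In all other cells none of the 6 genes exceeded 14.2 CPM.

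The members fell into cells with few or no CD3 transcripts and cells with more. The summed UMIs of *Cd3d*, *Cd3e* and *Cd3g* were at most 1 in one set of WT cells and at least 6 in the other, and at most 3 and at least 7 in the Cko cells. Cells with at least 5 such UMIs were called T-like. Cells below that limit with at least 2 of the 5 NK receptors *Ncr1*, *Klrd1*, *Klrb1c*, *Klre1* and *Klrk1* were called NK-like. Both limits were set after these values were seen. This gave 11 T-like, 8 NK-like and 1 unnamed cell in WT and 40 T-like, 15 NK-like and 6 unnamed cells in Cko.

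**Figure D1:**
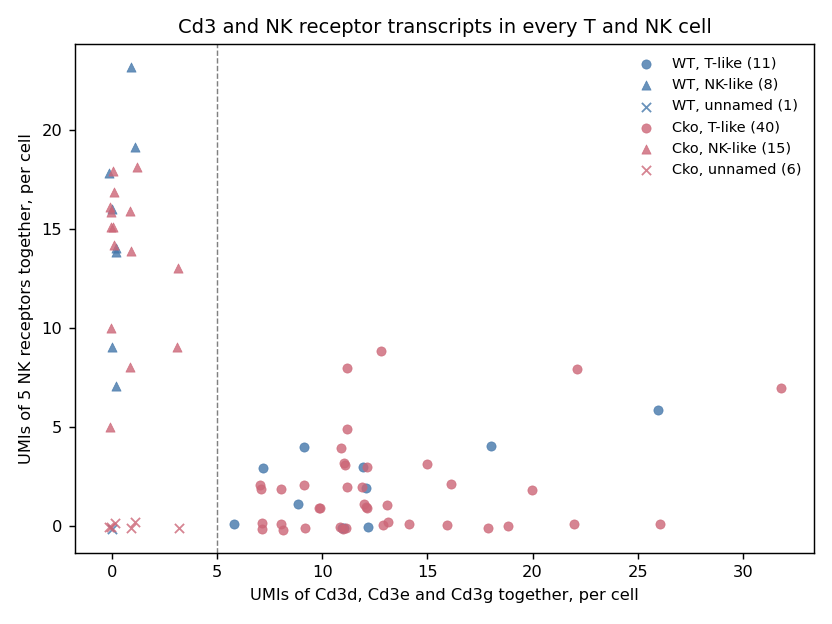
Each point is 1 of the 81 T and NK cells, with the summed UMIs of *Cd3d*, *Cd3e* and *Cd3g* on the x axis and the summed UMIs of 5 NK receptors on the y axis, shifted slightly so that equal values can be seen apart. The dashed line is the limit of 5 UMIs, and no cell lies between 3 and 6 CD3 UMIs. T-like cells reach from 6 CD3 UMIs upward, while NK-like cells hold at most 3 CD3 UMIs. In their NK receptor UMIs T-like and NK-like cells overlap.

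T-like cells were 55.0% of WT members (31.5 to 76.9%) and 65.6% of Cko members (52.3 to 77.3%), and NK-like cells were 40.0% (19.1 to 63.9%) and 24.6% (14.5 to 37.3%). With 20 WT cells these intervals were wide and overlapped, and the difference in composition was not tested. As a share of all cells, T-like cells were 6.23 times as frequent in Cko (3.14 to 13.5) and NK-like cells 3.21 times (1.28 to 8.74). Among cells with less than 1% hemoglobin the ratios were 3.58 (1.80 to 7.73) for T-like and 1.84 (0.734 to 5.02) for NK-like cells, and the second interval includes 1. Cells without CD3 UMIs could be chosen only through *Trbc2*, *Ccl5* and *Gzma*. *Ccl5* stood at 1798 CPM in WT and 9803 CPM in Cko NK-like cells, and its part in the NK-like share was not tested.

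**Figure D2:**
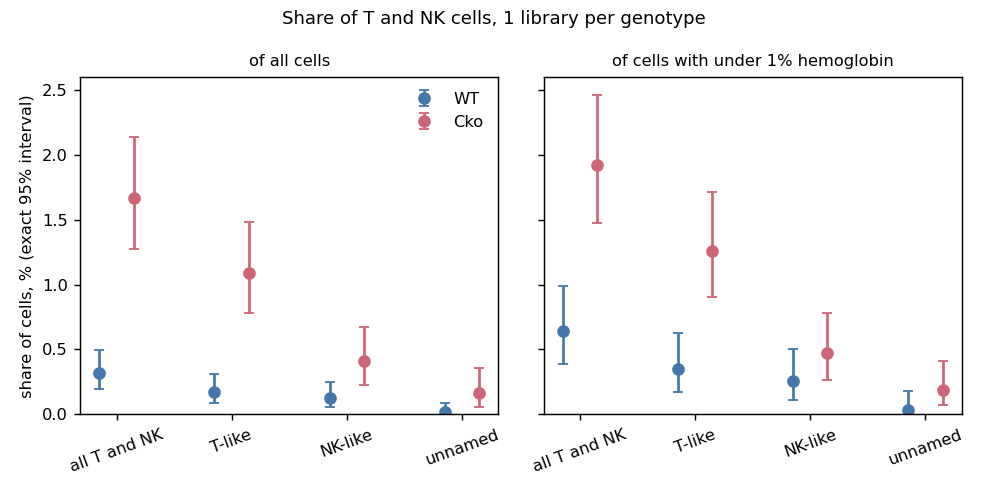
Points are the percent of cells that were T and NK cells in the WT and the Cko library, in all and by class, with exact binomial 95% intervals, out of all cells (left) and out of cells with less than 1% hemoglobin (right). The share of all T and NK cells was 0.319% in WT and 1.67% in Cko on the left and 0.640% and 1.92% on the right, and the intervals of WT and Cko NK-like cells overlap on both sides.

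Within T-like cells the CD8 coreceptor was higher in Cko. *Cd8b1*, which codes for the beta chain of CD8, was found in 3 of 11 WT T-like cells, with 6, 5 and 1 UMIs, and in 32 of 40 Cko T-like cells, with a median of 4.5 over all 40 cells and at most 14 UMIs. The WT median was 0. The summed level was 177 CPM in WT and 923 CPM in Cko (log2 ratio 2.38, 95% interval 1.54 to 3.36). Without the 3 WT and 3 Cko T-like cells that held at least 2 UMIs of *Cd79a* and *Cd79b*, the log2 ratio was 2.07 (1.19 to 3.10). *Cd8a*, the alpha chain, was not listed in WT and was found in 25 of 40 Cko T-like cells (44 UMIs, 218 CPM). The genes lie 50639 bases apart on chromosome 6, *Cd8b1* at chr6:71322788-71337494 and *Cd8a* at chr6:71373427-71379173, both on the plus strand in GRCm38.

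With each cell thinned to 3000 UMIs, a UMI of *Cd8a* or *Cd8b1* was present in 27.3% of WT T-like cells (6.02 to 61.0%) and in 80.0% of Cko T-like cells (64.4 to 90.9%), intervals that did not overlap. Of all members, the shares were 15.0% (3.21 to 37.9%) and 52.5% (39.3 to 65.4%), and the unthinned shares were the same. The difference was 37.5 percentage points (11 to 55). No NK-like cell held a UMI of either gene (0 of 8, which allows a share of up to 37.5%, and 0 of 15, up to 20%), and among thinned B cells, which lack CD8, 0 of 1004 WT and 1 of 788 Cko cells did. Median depths were 6216 and 4472.5 UMIs in T-like and 6215.5 and 7954.5 UMIs in B cells. With *Cd8b1* alone, listed in both libraries, the shares of members were 15.0% and 50.8%.

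Genes of naive T cells could be compared only in part, because *Ccr7*, the lymph node homing receptor, and the transcription factors *Tcf7* and *Bcl11b* were not listed in WT. They were found in 20, 22 and 11 of the 40 Cko T-like cells. *Lef1*, the partner factor of *Tcf7*, was found in 4 of 11 WT and 20 of 40 Cko T-like cells, with at most 2 and 4 UMIs. *Foxp3*, the factor of regulatory T cells, was listed in WT alone, with 2 and 4 UMIs in 2 T-like cells that held no *Cd8b1*. Both cells also held transcripts of other cell types, 17 *Ly6d*, 2 *Cd79b* and 2 *Siglech* UMIs in the first and 18 *Cd74*, 3 *Cd79a* and 4 *Cd79b* UMIs in the second, and the part of these in the result was not tested. *Ccr7* was named after its values were seen.

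Levels were compared gene by gene over 1130 genes that were listed in both libraries and had at least 50 UMIs over all members. A log2 ratio is that of the Cko CPM over the WT CPM. In Cko members 51 genes were at least 2-fold higher (4.51% of those compared) and 60 were at least 2-fold lower (5.31%). The median gene stood at −0.21 on the log2 scale, and ribosomal protein genes took 42.7% of the UMIs of Cko members and 33.4% of those of WT members. With the median set to 0, the counts became 73 higher and 27 lower, so that 73.0% of the genes past 2-fold were higher in Cko instead of 45.9%. With a reduced total that leaves out hemoglobin, granule, ribosomal and mitochondrial genes the counts were 77 and 27, and 74.0% were higher. Counts of higher and lower genes are therefore not a balance of directions, and each ratio below is to be read against the median of its cells, −0.28 in T-like and −0.02 in NK-like cells.

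The 3 lowest ratios among members were those of effector genes. *Ccl4*, a chemokine of activated lymphocytes, stood at 1338 CPM in WT and 30.3 CPM in Cko members (log2 ratio −5.47, −6.55 to −4.55), *Xcl1*, a chemokine that draws dendritic cells, at 1706 and 48.4 CPM (−5.14, −5.97 to −4.41), and *Gzmb*, the granzyme that cleaves caspases in target cells, at 837 and 84.7 CPM (−3.30, −3.96 to −2.69). A single WT NK-like cell held 160 of the 218 WT *Xcl1* UMIs, 154 of the 171 WT *Ccl4* UMIs and 33 of the 107 WT *Gzmb* UMIs. Without this cell, left out after the data were seen, the log2 ratios were −3.32 for *Xcl1* and −2.23 for *Ccl4*.

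*Xcl1* was found in 7 of 8 WT NK-like cells, with 160, 13, 12, 6, 2, 2 and 3 UMIs, and in 7 of 15 Cko NK-like cells, with at most 5 UMIs. Per cell, most WT NK-like cells held more *Xcl1* than most Cko cells, but the ranges overlapped. The levels were 3670 and 160 CPM (log2 ratio −4.52, −5.46 to −3.72). Among T-like cells *Xcl1* was found in 4 of 11 WT cells (20 UMIs, at most 12) and 2 of 40 Cko cells (3 UMIs).

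*Gzmb* was carried by few cells. In T-like cells 36 and 33 of the 70 WT UMIs came from 2 cells, both with *Cd8b1* and *Gzma*, and the third *Gzmb* cell had 1 UMI. In Cko T-like cells 12 and 3 UMIs came from 2 of 40 cells, which also held *Cd8b1* and *Gzma*. The levels were 1032 and 74.5 CPM (log2 ratio −3.79, −4.70 to −2.97). In NK-like cells 33 of the 37 WT UMIs came from the cell with the most *Xcl1*, and 5 of 15 Cko cells held 13 UMIs, so that the level was 686 and 160 CPM (−2.10, −3.14 to −1.16). Without that cell the direction turned, to 0.87 (−0.83 to 2.94), with 4 WT UMIs. *Ccl4* had 160 UMIs in 3 of 8 WT NK-like cells and 0 UMIs in the 15 Cko NK-like cells, at least 80.5-fold lower when 0 is read as up to 3 UMIs over the group. Since the same cell held 154 of the 160 UMIs, the bound without it was 3.56-fold. *Xcl1* in NK-like cells stood at −2.38 (−3.41 to −1.44) without it.

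Cells without CD3 UMIs could be chosen only through *Trbc2*, *Ccl5* and *Gzma*. The levels of *Ccl5* and *Gzma* are therefore a description only. *Ccl5*, one of these genes, was higher in Cko NK-like cells. It had 97 UMIs in WT (median 8.5 per cell, at most 29) and 798 UMIs in Cko (median 29, at most 221), or 1798 and 9803 CPM (log2 ratio 2.45, 2.14 to 2.77), with 2 of 15 Cko cells at 0. In T-like cells it stood at 2550 and 2929 CPM (0.20, −0.05 to 0.45). *Gzma* was 0.57 higher in Cko NK-like cells on the log2 scale (0.30 to 0.86) and 1.62 lower in Cko T-like cells (−1.62, −2.09 to −1.16), where 2 WT and 4 Cko cells held it. *Nkg7*, a granule membrane protein of cytotoxic cells, differed less, by −0.38 in T-like and −0.27 in NK-like cells, close to the median of all genes in T-like cells.

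**Figure D3:**
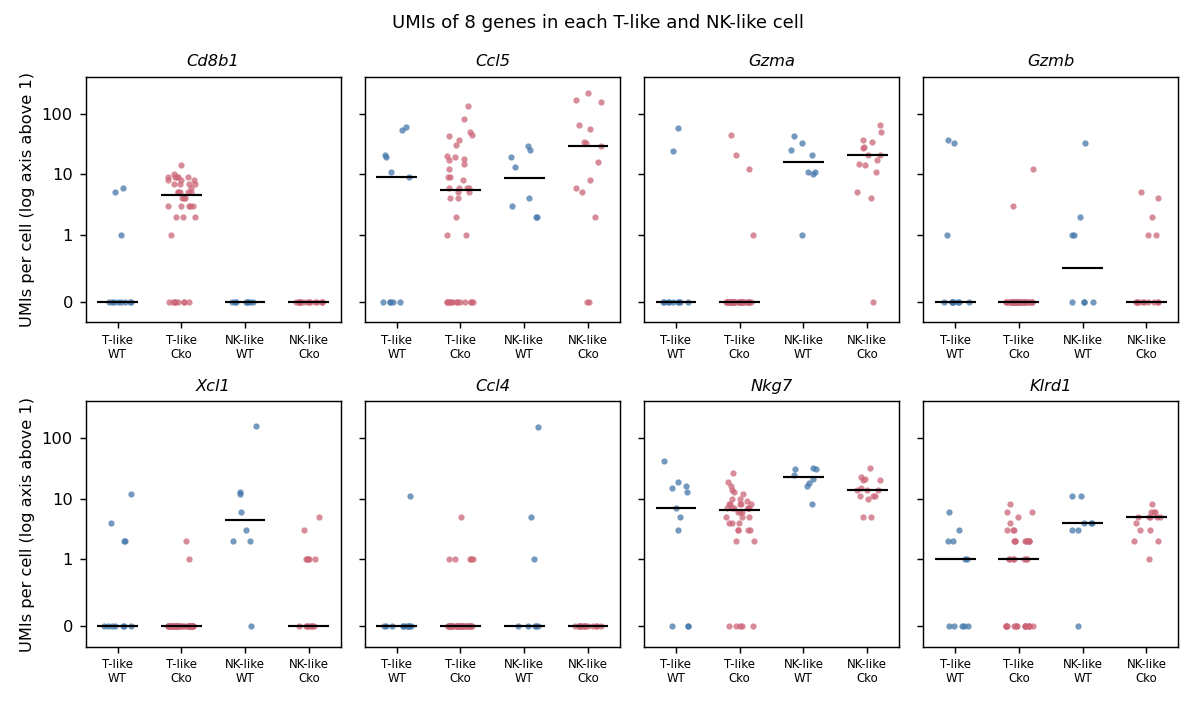
Each point is 1 T-like or NK-like cell of the WT or Cko library and shows its UMIs of the gene named above the panel, on an axis that is linear from 0 to 1 and logarithmic above 1, with a black line at the median. *Cd8b1* is present in 3 of 11 WT and 32 of 40 Cko T-like cells, and 1 WT NK-like cell with 160 *Xcl1* and 154 *Ccl4* UMIs stands above all other cells.

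As a group, the cytotoxic and effector genes were counted without *Ccl5* and *Gzma*, which chose the cells. In members 0 of 8 were at least 2-fold higher in Cko and 3 were lower (*Ccl4*, *Xcl1*, *Gzmb*), where 4.51% of all 1130 genes were higher and 5.31% lower, and their median log2 ratio was −0.78, against −0.21. Without the WT cell with the most *Xcl1*, 1 of 7 was higher and 3 were lower in members. Their median was then −0.56, against −0.22 over all genes. In T-like cells 0 of 5 were higher and 1 was lower (median −0.49, against −0.28), where 5.77% of all 641 genes compared were higher and 10.3% lower. In NK-like cells 0 of 6 were higher and 3 were lower (median −1.24, against −0.02), where 3.37% of all 356 genes were higher and 5.34% lower. Their summed level in NK-like cells was 13161 CPM in WT and 4803 CPM in Cko (log2 ratio −1.45, −1.64 to −1.27). Without the WT cell with the most *Xcl1* it was 5933 and 4803 CPM (−0.30, −0.53 to −0.08), and 1 of the 4 genes that still reached 50 UMIs was at least 2-fold lower.

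The NK receptors, which served to name the NK-like cells, stood at 6321 CPM in WT and 7518 CPM in Cko NK-like cells as a summed list (log2 ratio 0.25, 0.06 to 0.45), with 1 of 7 genes at least 2-fold higher, 0 lower and a median of 0.13. *Klra7*, a receptor for MHC class I, was that gene, with 53 UMIs in 8 of 15 Cko cells against 15 UMIs in 2 of 8 WT cells (1.23, 0.38 to 2.16). Of the 15 WT UMIs 14 lay in 1 cell. The B cell list also differed in these cells, with 5 UMIs in WT and 114 UMIs in Cko NK-like cells (92.7 and 1400 CPM, log2 ratio 3.92, 2.65 to 5.57). Without the 2 Cko NK-like cells that held at least 2 UMIs of *Cd79a* and *Cd79b*, *Klra7* stood at 1.65 (0.80 to 2.59), *Ccl5* at 2.83 and the summed NK receptors at 0.55 (0.36 to 0.75). *Klrb1c*, which codes for NK1.1, was found in 4 of 8 WT and in all 15 Cko NK-like cells, and *Ncr1* in 7 of 8 and 13 of 15. *Klrd1*, the CD94 chain, was 0.13 higher in Cko (−0.46 to 0.74). Over all members 0 of 7 NK receptors were higher and 3 lower, where 5.31% of all genes were lower, and the median was −0.14. With the median gene set to 0, 1 of 7 was lower and the median was 0.07. A UMI of 1 of the 5 receptors was present in 70.0% of WT members (45.7 to 88.1%) and 55.7% of Cko members (42.4 to 68.5%) after thinning, and in 1.0 and 1.40% of B cells. The difference of −14.3 percentage points (−36.7 to 13.1) was within counting error, and the unthinned shares were 75 and 63.9%.

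Klr transcripts also occurred in T-like cells, as *Klrd1* was found in 6 of 11 WT and 24 of 40 Cko T-like cells. After thinning, 54.5% of WT (23.4 to 83.3%) and 47.5% of Cko T-like cells (31.5 to 63.9%) held a UMI of at least 1 of the 5 receptors, a difference within counting error. *Nkg7* was found in 8 of 11 and 35 of 40 of them. T-like cells with cytotoxic transcripts were thus present in both libraries.

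Genes of the T cell receptor complex stood above the median of all genes, apart from *Trbc1*. Among the 5 genes of the T cell receptor complex, which include 4 of the genes that chose the cells, 0 were past 2-fold in members, and their median was 0.70, against −0.21 over all genes. With the median gene set to 0, 1 was at least 2-fold higher and the median was 0.90. Within T-like cells *Cd3d* was 0.49 higher in Cko (0.08 to 0.92), *Cd3g* 0.48 higher (0.00 to 0.98), *Cd3e* 0.01 higher (−0.63 to 0.70) and *Trbc2* 0.96 higher (0.48 to 1.47), whereas *Trbc1* was lower (−1.23, −1.96 to −0.49). Because the cells with 5 CD3 UMIs defined the class, these are descriptions. The single levels of *Trbc1* and *Trbc2* are also uncertain, as UMIs may be split between these near-identical copies. Of 12 signalling genes compared in members, 0 were past 2-fold in either direction, and their median was −0.02. With the median gene set to 0, 1 was at least 2-fold higher and the median was 0.18. In NK-like cells 2 of 3 were at least 2-fold higher, where 3.37% of all genes were.

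The list of transcription factors also held *Txnip*, which codes for no such factor. Of the 5 genes compared in members 2 were at least 2-fold higher in Cko, *Txnip* and the factor *Lef1*, and 0 were lower, with a median of 0.53, where 4.51% of all genes were higher. This depended on the cells compared. Without the cells with B cell transcripts 0 of 3 genes were at least 2-fold higher, with a median of 0.08, against −0.21 over all genes. In T-like cells 0 of 3 were (median −0.22, against −0.28), and in NK-like cells 0 of 2 (median 0.52, against −0.02). *Txnip* was not among the genes compared in these subsets, where its own log2 ratio was 3.16, 3.24 and 2.31. *Id2*, a factor of NK and effector T cells, stood at 524 CPM in WT and 760 CPM in Cko members (0.53, 0.14 to 0.95) and at 295 and 481 CPM in T-like cells (0.71, 0.00 to 1.48). *Klf2*, which controls T cell exit from tissues, stood at 634 and 638 CPM in members (0.01, −0.37 to 0.40). *Id3* was lower (18 UMIs in 3 WT cells, 14 UMIs in 12 Cko cells), at −1.73 (−2.85 to −0.64).

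**Figure D4:**
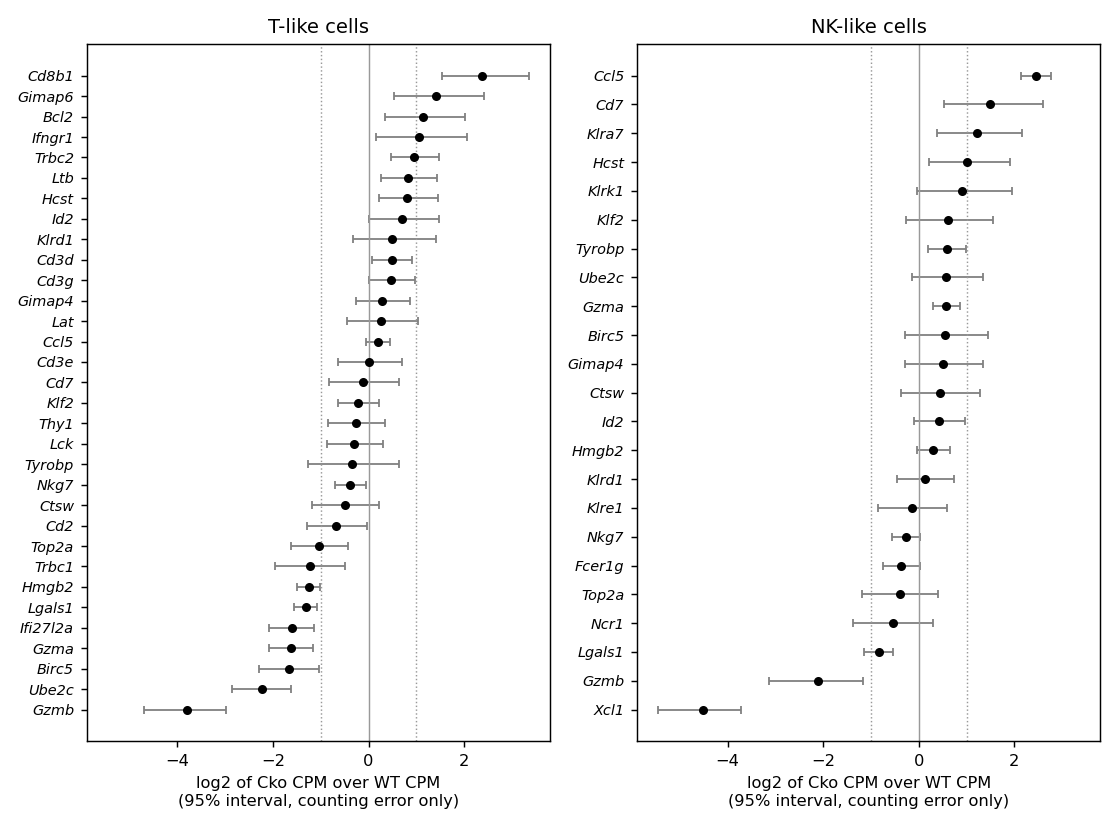
Points are the log2 ratio of Cko CPM over WT CPM for a choice of genes from the lists with at least 50 UMIs in T-like (left) and NK-like cells (right), with 95% intervals for counting error, and dotted lines mark 2-fold. *Cd8b1* at 2.38 and *Gzmb* at −3.79 are the ends among the genes drawn for T-like cells, and *Ccl5* at 2.45 and *Xcl1* at −4.52 among NK-like cells, while the CD3 chains lie within 2-fold. *Ccl4*, with 0 Cko UMIs in NK-like cells, is not drawn. *Ccl5* and the CD3 chains are among the genes that chose the cells.

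Cell cycle genes were lower in the pooled Cko T-like cells. Of 11 compared, 0 were above a log2 ratio of 0 and 5 were at least 2-fold lower (median −0.73, against −0.28 over all 641 genes), and the summed level was 15463 CPM in WT and 8215 CPM in Cko (−0.91, −1.03 to −0.80). Examples chosen after their values were seen are *Top2a*, the topoisomerase of dividing cells (619 and 303 CPM, −1.03, −1.62 to −0.43), *Ube2c*, which acts at mitotic exit (884 and 189 CPM, −2.23, −2.86 to −1.62), and *Birc5*, survivin (693 and 218 CPM, −1.67, −2.29 to −1.04). After thinning, 7 of 11 WT T-like cells (63.6%, 30.8 to 89.1%) and 7 of 40 Cko T-like cells (17.5%, 7.34 to 32.8%) held a *Top2a* UMI, intervals that overlap slightly. The list moved with the ribosomal share, which was 31.0% of the UMIs of WT and 44.8% of those of Cko T-like cells. With the median gene set to 0, 2 of 11 cell cycle genes were at least 2-fold lower, 1 was above 0 and the median was −0.45, and the part of the ribosomal share in this was not tested. In NK-like cells, where the ribosomal share was 36.2 and 39.7%, 0 of 9 cell cycle genes were past 2-fold, 4 were above 0 and the summed levels were 12401 and 11990 CPM (−0.05, −0.19 to 0.10).

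The other lists are given by their counts, against 4.51% of all 1130 genes at least 2-fold higher and 5.31% at least 2-fold lower in members. With so few genes a list, 1 gene is a large share. MHC class I genes had 0 of 7 past 2-fold in members (median −0.0018, and 0.20 with the median gene set to 0), and in NK-like cells all 4 compared were above 0, with a summed level of 5913 CPM in WT and 8047 CPM in Cko (0.44, 0.25 to 0.64). Immediate early genes, which answer to handling and activation, had 3 of 8 at least 2-fold higher and 0 lower (median 0.74). This median depended on few cells and genes. Without the cells with B cell transcripts, 17 WT and 55 Cko members were left. Then 1 of 5 immediate early genes was higher and 0 lower, with a median of −0.13, against −0.21 over all genes. Their summed level stayed higher in Cko, at 0.27 (0.03 to 0.51) with these cells and 0.30 (0.02 to 0.58) without them. The Gimap family had 1 of 5 higher and 0 lower (median 0.21), cytokine receptors 1 of 3 higher and 0 lower, and homing genes 0 of 7 past 2-fold (median −0.21, and 0.02 with the reduced total). The interferon list had 0 of 4 higher and 1 lower (median −0.32). The lymphocyte surface list had 1 of 9 higher and 1 lower (median 0.29) and its summed level was −0.23 on the log2 scale (−0.33 to −0.13), so the median and the sum differed in sign.

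S1P activates the SREBP and ATF6 transcription factors, and their targets were read in these cells as a check of the pathway. Of 22 SREBP targets, which serve sterol and fatty acid synthesis, 7 were listed in both libraries and 0 reached 50 UMIs, and they summed to 27 UMIs in WT and 30 UMIs in Cko members (211 and 90.8 CPM, log2 ratio −1.22, −2.02 to −0.41). Of 7 ATF6 and endoplasmic reticulum chaperone genes compared, 0 were at least 2-fold higher and 1 lower (median −0.17, and 0.03 with the median gene set to 0). *Mbtps1* itself had 7 UMIs in WT and 13 UMIs in Cko members (54.8 and 39.3 CPM). Tags at the 3′ end lie outside the deleted exon 2, so this level checks neither the label nor a deletion in these cells. *Sp7*, the osterix gene, had 0 UMIs in WT members and was not listed in Cko.

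The 10 highest ratios in members were those of *Cd8b1*, *Lmo4*, *Gm6133*, *Txnip*, *Ramp1*, *Rps18-ps3*, *Maf1*, *Gm5428*, *Rps10-ps1* and *Klk8*. *Txnip*, which binds thioredoxin and limits glucose uptake, was found in 2 of 20 WT members (3 UMIs) and in 33 of 61 Cko members (49 UMIs, at most 5 per cell), a log2 ratio of 2.66 (1.03 to 4.99). *Klk8*, a secreted serine protease, had 1 UMI in each of 7 WT members and 60 UMIs in 28 Cko members (1.73, 0.60 to 3.10). *Maf1*, a repressor of RNA polymerase III, had 5 and 46 UMIs (1.83, 0.51 to 3.52). *Rps18-ps3* and *Rps10-ps1* are ribosomal pseudogenes, so their UMIs may belong to near-identical copies, and *Gm5428* and *Gm6133* are gene models without a known role.

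*Lmo4*, a LIM protein of transcription complexes, had 2 UMIs in WT and 69 UMIs in Cko members (3.74, 1.83 to 6.81). Of the 69 UMIs 57 lay in 5 of the 6 unnamed Cko cells, and 33 in a single cell. *Ramp1*, a subunit of the receptor for calcitonin gene-related peptide, had 6 and 71 UMIs (2.19, 1.0 to 3.69), of which 24 Cko UMIs lay in 5 of the unnamed cells. Both ratios thus rested in part on cells that were neither T-like nor NK-like, and 5 *Lmo4* UMIs were found in all Cko T-like cells together.

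The 10 lowest ratios included, after *Ccl4*, *Xcl1* and *Gzmb*, those of *Hist1h2ap*, *Tuba1c*, *C1qbp*, *Taf10*, *Hnrnpc* and *Hnrnpab*. *Hist1h2ap*, a histone gene of the S phase with near-identical copies, had 170 UMIs in 10 of 20 WT members and 109 UMIs in 14 of 61 Cko members (−2.01, −2.37 to −1.66). *Tuba1c*, an alpha tubulin, stood at 329 and 84.7 CPM (−1.96, −2.70 to −1.23). *Hnrnpc* and *Hnrnpab* code for RNA-binding proteins, *Taf10* for a subunit of general transcription complexes and *C1qbp* for a mitochondrial protein, and their log2 ratios lay between −1.47 and −1.43.

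The unnamed cells were few and unlike each other. In 3 of the 6 Cko cells *Id2* had 19, 12 and 26 UMIs, *Rora* 7, 5 and 10 and *Gata3* 4, 6 and 1, factors shared by T cells and innate lymphoid cells, and 2 of these cells also held 11 and 3 UMIs of the gamma chain gene *Tcrg-C1*. A further cell held 33 UMIs of *Ly6d* and 2 of *Siglech*, a marker of plasmacytoid dendritic cells, and another 24 UMIs of *Cd74*, 4 of *Cd79a* and 7 of *Cd79b*, genes of B cells. The 1 unnamed WT cell held 18 *Top2a* UMIs, 2 each of *Trbc1* and *Trbc2* and 1 of *Ccl5*. These features were read after the values were seen, and no cell type is given to these cells.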

How the data were processed

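Per the submitters' processing notes, the authors used Cell Ranger and GRCm38, and they deposited UMI counts per gene and barcode as whole numbers. The Cell Ranger version is not given in the sources used here. Barcodes with at least 200 genes were kept. The cells, gene lists and limits were chosen with earlier results of these data known. CPM were taken over the pooled UMIs of each class, and genes with at least 50 UMIs over both libraries were compared. Ratios have exact conditional 95% intervals and shares exact binomial ones, for counting error only, and these were tested on simulated data. Thinning drew 3000 UMIs per cell, and no member was shallower. A count of 0 was read as up to 3 UMIs. Scrublet (scanpy 1.11.5, expected rate 5%) marked doublets, which were kept. Genes were named from the T cell receptor, coreceptor, NK receptor, effector and transcription factor lists with at least 20 UMIs, as the 15 highest over other cells, as the 10 highest and 10 lowest ratios, and as the targeted, driver and sex genes. Others were named after their values were seen. Some genes that meet these rules are not reported here. With 1 library per genotype no test was made. Alternatives were other scalings, thinning, UMI limits, stricter cell rules and removal of doublets, of cells with B cell transcripts or of the highest cell of each gene. Gene positions are from GENCODE vM21. Python 3.11.15, numpy 2.4.6, scipy 1.17.1 and pandas 2.3.3 were used.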

Additional observations from a re-analysis of the deposited data

Results flagged for a closer look

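For the genes below, T-like and NK-like cells moved in opposite directions between the genotypes, with intervals on both sides that did not reach 0. This difference was not tested, because there was 1 library per genotype. The log2 ratio in T-like cells minus that in NK-like cells was 0.79 for *Rps29* (0.46 and −0.33), 0.73 for *Rplp2* (0.42 and −0.31), 0.85 for *Rps26* (0.54 and −0.31) and 0.88 for *Rps25* (0.49 and −0.39), genes of ribosomal proteins. It was −1.30 for *Ubb*, a ubiquitin gene (−0.39 and 0.91), and −1.52 for *Fxyd5*, a regulator of the sodium pump (−0.76 and 0.75). These ratios and intervals were taken before the median of each class was set to 0. That median was −0.28 in T-like and −0.02 in NK-like cells, so the −0.39 of *Ubb* in T-like cells lay close to it.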

How the results depend on the processing

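No paired analysis was possible because each genotype had 1 library. The log2 ratio of the T and NK cell share was 2.38 and became 1.59 among cells with less than 1% hemoglobin. Among cells under all 3 limits it was 1.97, and under the other alternatives it stayed between 2.18 and 2.68. The 51 genes at least 2-fold higher in Cko members became 77 with the total without hemoglobin, granule, ribosomal and mitochondrial genes, 32 after thinning, 150 with a limit of 20 UMIs, 22 with a limit of 100 UMIs and 12 in NK-like cells alone. The 60 lower genes became 27 with median-ratio scaling, 27 with that reduced total, 236 with 20 UMIs, 27 with 100 UMIs and 19 in NK-like cells alone. The limits and the subsets change how many genes are compared, and the ribosomal share moves the scaling. The ratio of *Rps10-ps1* turned from 1.74 to −0.0085 in NK-like cells alone, and the cause was not tested. The difference in *Cd8a* or *Cd8b1* shares stayed between 35.8 and 52.7 percentage points and that in NK receptor shares between −20.1 and −7.05. No member was called a doublet, so that the removal of doublets could move only the share. The T-like and NK-like subsets, *Cd8b1* alone, lists without the genes of the rule and the removal of the WT cell with the most *Xcl1* or, within T-like and NK-like cells, of cells with B cell transcripts were added after the data were seen.

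Of the 20 WT cells 8 were NK-like, so a gene found in 0 of them may still have a share of up to 37.5%. In so few cells 1 cell can decide a level, as for *Ccl4* and *Xcl1*. Without the highest cell of each gene in each library their log2 ratios were −3.19 and −3.85. Thinning brought *Gzmb* to −2.61. Both libraries list only genes that reach a minimum in a cell, so low genes such as *Cd4* and *Trac* are out of reach.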

Other observations

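In WT T-like cells the 3 cells with *Cd8b1* held 59, 19 and 11 UMIs of *Ccl5*, and of the 8 without it 5 held no *Ccl5*. The 2 WT cells with *Foxp3* held no *Ccl5*, *Gzma* or *Gzmb*. Of the 40 Cko T-like cells 8 held neither *Cd8a* nor *Cd8b1*. *Cxcr6*, a receptor of tissue-resident lymphocytes, was listed in Cko alone, with 28 UMIs in 3 of 40 T-like cells. *Klra8* had 29 UMIs in 5 of 61 Cko members, all NK-like, and 11 UMIs in 3 of 20 WT members. These were chosen after their values were seen, and no explanation was tested.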
